A study of Mus musculus with 6 samples.

Results

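The baseline transcriptome of the olfactory mucosa was taken from the 3 control libraries of a mouse study, as the genes with a normalized count of at least 10 in each of the 3. This rule kept 18804 of the 40273 genes in the deposited table, and those genes held between 99.7% and 99.9% of each library's counts. The study asked what happens to odorant receptor expression when a 1005 bp enhancer of the class I receptors is deleted, and it sequenced 3 control and 3 deletion animals of matched age. The deletion libraries were not used here. The controls were wildtype males on the mixed background 129S6;C57BL/6J, taken on postnatal day 30, with both copies of the enhancer in place and no treatment named. They are called control 1, control 2 and control 3 below. With a single group of 3 animals no test between conditions was possible, and all values are descriptions of these libraries.

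The olfactory mucosa lines the back of the nasal cavity. Its sensory neurons each express 1 odorant receptor gene and turn odor binding into a current through a G protein, an adenylyl cyclase and a cyclic nucleotide-gated channel. Sustentacular cells surround the neurons and carry large amounts of enzymes that break down inhaled chemicals, basal cells renew the epithelium, and glands beneath and beside it secrete mucus rich in odorant-binding proteins.

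The 3 libraries were not alike in depth or in breadth. The recovered reads summed to 50906277 in control 1, 31281010 in control 2 and 31100948 in control 3. Control 1 was the deepest but had reads for the fewest genes, 27816 against 36197 and 36755, and after thinning all libraries to 31100948 reads the numbers were 26500, 36167 and 36755. At equal depth the gap was as wide. Of low genes, 1125 genes reached 10 in controls 2 and 3 but not in control 1, with a median mean of 12.0 normalized counts, against 213 and 156 genes that missed 10 in control 2 or in control 3 alone. Among the 18804 genes the log2 values of any pair of libraries correlated with r between 0.989 and 0.994, across genes of one tissue that are not independent. Over all 18804 genes control 1 was the highest library in 42.6%, control 2 in 28.5% and control 3 in 28.9%, and they were the lowest in 30.9%, 32.9% and 36.2%. Scaled to the library total in place of the authors' size factors, control 1 was highest in 31.4% and lowest in 41.5%, so small differences in library order depend on the scaling. Because control 1 stood apart, the value of each library is given for the genes that matter. The Y-linked genes Ddx3y, Kdm5d, Uty and Eif2s3y had means between 1579 and 2924 normalized counts, and Xist, the RNA that silences an X chromosome in females, had 5.91, 19.5 and 25.6, as in male tissue, and all 3 animals are labelled male.

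Per kb of merged exons, the highest nuclear protein-coding genes of the tissue were those of secreted nasal proteins. The 30 highest held 9.69%, 7.72% and 9.44% of the counts of controls 1, 2 and 3. Scgb1c1, a small secreted protein of the secretoglobin family (chromosome 7, 140845547 to 140846769, GRCm38), was first with 262749, 179067 and 224141 normalized counts per kb. Next came Obp1a, a lipocalin that carries odorants in nasal mucus (chromosome X, 78085505 to 78091374), with 285190, 131435 and 210536 per kb. The gene Gm14744, which RefSeq also lists as Obp1f, followed with 249608, 114630 and 247655 per kb. In all 3 of these genes control 2 was the lowest library. For scale, the median protein-coding gene among the 18804 stood at 182 normalized counts per kb.

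Bases upstream of the RefSeq starts of 6 of these genes are shown because a letter pattern near the start was held by a larger share of the highest genes than of other genes, though not by most of them. A script looked for TATAAA or TATATA on the gene's own strand, with the first letter 24 to 36 bases before the start, counting a promoter with both once. This window was chosen after the values were seen. It was found in 803 of all 27025 genes of the RefSeq promoter table (GRCm38.p6), which is 2.97%, and in 2.30% of the protein-coding genes kept here that have an entry. Of the 30 highest genes 24 have an entry, and 9 of those, or 37.5%, held the pattern: Obp1a, Gm14744, Cyp2a5, Bpifa1, 5430402E10Rik, Mup4, Vmo1, Obp2b and Bpifb3. The share was 18.9% for ranks 31 to 100 and 3.17% for ranks 101 to 1000. In the mature neuron list described below it was found in 0 of the 11 genes with an entry, and 1.71% of odorant receptor genes held it. Anywhere in the 250 bases the letters occurred in 54.2% of the 24 highest genes with an entry, in 32.0% of odorant receptor genes and in 13.4% of all genes, so the difference from receptors was smaller without the window. A letter match is a description and not a measured binding site. The 250 bases before each start read as follows, 5′ to 3′ on the gene's strand, with the pattern in capitals. They lie at chrX:78091375-78091624 on the minus strand (Obp1a), chr2:25736757-25737006 on the plus strand (Obp2b), chr2:154142630-154142879 on the plus strand (Bpifa1), chr7:26835089-26835338 on the plus strand (Cyp2a5), chrX:77864508-77864757 on the plus strand (Gm14744) and chrX:77925063-77925312 on the minus strand (5430402E10Rik).
Obp1a: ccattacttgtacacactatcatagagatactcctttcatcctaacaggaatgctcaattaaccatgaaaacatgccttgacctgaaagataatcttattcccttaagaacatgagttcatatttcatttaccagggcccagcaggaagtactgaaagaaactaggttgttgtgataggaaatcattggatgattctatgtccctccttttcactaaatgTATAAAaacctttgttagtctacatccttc
Obp2b: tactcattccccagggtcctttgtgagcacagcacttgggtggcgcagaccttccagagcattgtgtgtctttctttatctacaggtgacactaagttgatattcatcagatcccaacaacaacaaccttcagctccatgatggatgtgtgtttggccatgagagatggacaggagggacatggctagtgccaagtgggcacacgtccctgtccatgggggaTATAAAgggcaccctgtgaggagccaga
Bpifa1: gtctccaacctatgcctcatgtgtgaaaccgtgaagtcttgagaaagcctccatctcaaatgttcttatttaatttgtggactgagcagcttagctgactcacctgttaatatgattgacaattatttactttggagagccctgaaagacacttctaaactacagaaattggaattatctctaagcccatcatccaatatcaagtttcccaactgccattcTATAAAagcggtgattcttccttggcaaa
Cyp2a5: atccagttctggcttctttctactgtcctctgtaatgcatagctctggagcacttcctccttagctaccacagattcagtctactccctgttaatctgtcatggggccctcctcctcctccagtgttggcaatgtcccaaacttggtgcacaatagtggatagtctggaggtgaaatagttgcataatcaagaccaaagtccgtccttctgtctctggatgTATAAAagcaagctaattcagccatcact
Gm14744: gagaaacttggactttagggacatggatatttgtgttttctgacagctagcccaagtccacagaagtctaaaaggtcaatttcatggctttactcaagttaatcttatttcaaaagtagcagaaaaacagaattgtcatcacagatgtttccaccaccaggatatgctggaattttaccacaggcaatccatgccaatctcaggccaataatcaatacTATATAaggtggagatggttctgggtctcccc
5430402E10Rik: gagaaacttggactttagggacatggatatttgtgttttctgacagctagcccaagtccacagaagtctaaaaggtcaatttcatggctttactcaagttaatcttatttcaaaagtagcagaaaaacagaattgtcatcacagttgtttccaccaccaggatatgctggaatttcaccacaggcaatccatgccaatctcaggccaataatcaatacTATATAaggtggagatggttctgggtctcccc
The last pair are the same in 248 of 250 bases. Gm14744 and 5430402E10Rik are therefore close copies over this stretch, and how their reads were divided between them is uncertain.

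Of the 30 highest genes, 9 were lipocalins, Obp1a, Gm14744, Obp2a, 5430402E10Rik (also OBP2 in RefSeq), Obp1b, Mup4, Obp2b, Lcn11 and Mup5. Lipocalins are small barrel-shaped carriers of odorants and pheromones, and Mup4 and Mup5 belong to the major urinary proteins. Obp2a had 292779, 64743 and 115914 normalized counts per kb, and Obp2b had 167714, 19422 and 52282. Both were highest in control 1 and lowest in control 2. Obp1b had 166181, 70355 and 143893 per kb, and Mup4 had 135938, 45886 and 94839, in the same order of libraries. By contrast 5430402E10Rik was highest in control 3, with 128245, 108711 and 201462 per kb.

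Other secreted products came from the BPI fold family and from glands. Bpifa1, a secreted airway defense protein (chromosome 2, 154142880 to 154149219), had 218532, 131344 and 152780 normalized counts per kb, so that control 1 stood above the other libraries. Its relatives Bpifb3 (82540 ± 9710 per kb, SD, n = 3) and Bpifb6 (38877 ± 2939) varied less. Vmo1 had 80202 ± 7416 per kb, Chil6, a chitinase-like protein, 34806 ± 4264, and Gpx6, of the glutathione peroxidase family, 39021 ± 3701.

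Enzymes of sustentacular cells were high and nearly level across the animals. Cyp2a5, a cytochrome P450 that oxidizes foreign compounds, had 203512, 171998 and 188866 normalized counts per kb. Cyp2g1, a cytochrome P450 known for its restriction to the olfactory mucosa (chromosome 7, 26808892 to 26821205), had 60445, 58612 and 57081 per kb, a coefficient of variation of 2.87%. Sec14l3, a lipid-binding protein, was steadier still at 37745, 37742 and 37417 per kb, a coefficient of variation of 0.501%. Cbr2, a carbonyl reductase, had 51170 ± 9623 per kb and Cyp2f2 33310 ± 2593. Of these 5 genes Cbr2 spread most, with control 1 the highest library.

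The neuronal genes among the 30 ran in another order of libraries. S100a5, a calcium-binding protein of olfactory sensory neurons, had 81428, 124782 and 141298 normalized counts per kb, lowest in control 1. Omp, the cytosolic olfactory marker protein of mature sensory neurons (chromosome 7, 98143359 to 98145502), had 69874, 84797 and 78221 per kb, also lowest in control 1. Stoml3, a stomatin-like membrane protein of the sensory cilia, had 29764, 35446 and 33106 per kb in the same order as Omp. The calmodulin gene Calm2 (31724 ± 3337 per kb), the membrane protein gene Stom (37631 ± 2895), the tubulin gene Tuba1a (43962 ± 3310) and the elongation factor gene Eef1a1 (52762 ± 4088) were also among the 30. The predicted gene Gm10800 had 249, 100280 and 206301 per kb, so that its rank came from controls 2 and 3 alone.

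**Figure D1:**
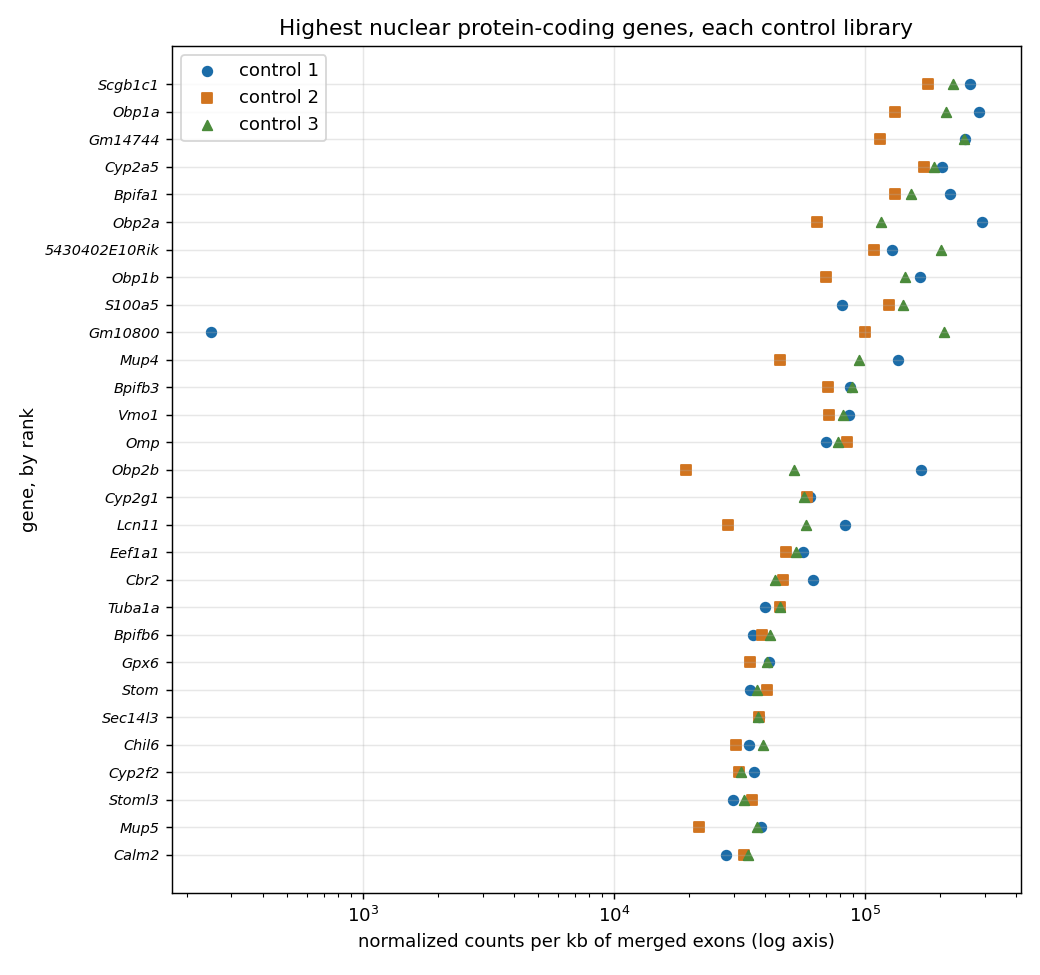
Normalized counts per kb of merged exons (log axis) of 29 of the 30 highest nuclear protein-coding genes, in rank order from the top, with 1 point for each control library. The lipocalin genes and Gm10800 have widely spaced points, while the points of Cyp2g1 and Sec14l3 nearly coincide.

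The libraries were prepared from total RNA after depletion of ribosomal RNA, so RNAs without a poly(A) tail were counted as well. Protein-coding genes took 93.3 ± 0.39% of the counts (SD, n = 3) and the genes of the mitochondrial genome 4.09 ± 0.16%. Most of the latter was mt-Rnr2, the large mitochondrial ribosomal RNA, with 1072280, 948446 and 880144 normalized counts, followed by mt-Co1, a subunit of cytochrome c oxidase, with 299165, 292432 and 346112. The small mitochondrial ribosomal RNA mt-Rnr1 had 120714, 100225 and 77130, and mt-Cytb and mt-Nd1 had means of 44130 and 40369. Both ribosomal RNAs were highest in control 1 and lowest in control 3, and mt-Co1 was highest in control 3.

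Among nuclear noncoding RNAs the RNA subunit of ribonuclease P, Rpph1, had 269626, 186078 and 274801 normalized counts, and that of RNase MRP, Rmrp, had 203919, 125485 and 159875. These 2 genes alone took 1.11 ± 0.21% of the counts. Malat1, a nuclear long noncoding RNA, had 260050, 223869 and 230887. In all 3 RNAs control 2 was the lowest library. Gm26917, BC051076, Gm22513, Gm42418, Gm25939, 1700020I14Rik and Gm23935 followed, with means from 78733 down to 12620. Of these BC051076 and Gm42418 spread over 2-fold (2.79-fold and 2.09-fold, highest in control 1), as did 4.87% of all 18804 genes. The exons of Gm42418 overlap those of CT010467.1 on the opposite strand, a gene with a mean of 9362, so the reads of Gm42418 are uncertain.

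The tissue label was checked against 35 lists of marker and pathway genes, of which 263 of 267 genes were found in the table and 233 reached 10 in all 3 libraries. Lists are summarized by the sum of their normalized counts per kb. In bulk tissue fewer cells of a type and less RNA per cell cannot be told apart, so a list sum is not a number of cells. All 15 genes of mature sensory neurons, all 9 of immature neurons and all 10 of globose basal cells and neuronal precursors were kept. So were all 7 of horizontal basal cells and all 9 of sustentacular cells. For comparison, 76.5% of all protein-coding genes were kept, and the bone, smooth muscle and endothelium lists were kept in full too. Being kept therefore does not set olfactory epithelium apart from other tissues. Mature neuron genes summed to 249374, 325585 and 326211 per kb and sustentacular genes to 413648, 357767 and 369983. Immature neuron genes were far lower, at 16418, 17604 and 16340, and precursors lower again, at 3343, 2768 and 2541. S100a5 gave 38.6% of the mature neuron sum and Cyp2a5 49.4% of the sustentacular sum. Ugt2a1 of the sustentacular list shares exons with Ugt2a2 on the same strand, so its low value (mean 11.4 normalized counts) is uncertain.

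Precursor genes covered dividing cells and neuronal progenitors. Hes6, a transcription factor of neuronal precursors, had 2802, 2045 and 2055 normalized counts, and Top2a, a topoisomerase of dividing cells, had 3925, 3365 and 2956. Neurog1, a transcription factor of neuronal progenitors, was at 151, 93.0 and 90.7. All 3 of these genes were highest in control 1, as were 8 of the 10 genes of the list, or 6 of 10 when scaled to the library total. Gap43, a growth-associated protein of extending axons and 1 of the immature neuron genes, had 2728, 3341 and 3372 normalized counts. It was lowest in control 1, but the 9 genes of its list did not share 1 order. Of these, 7 were highest in control 2, while 4 were lowest in control 1 and 5 in control 3.

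Neighbouring tissues of the nose were also present. Respiratory cells with motile cilia were represented by 11 of 11 genes, with a sum of 14016, 12257 and 12965 per kb, and Foxj1, the regulator of motile cilia, had 5991, 5204 and 5574 normalized counts. Fibroblast genes summed to 23873, 23953 and 24673 per kb, with Col1a1, a chain of type I collagen, at 77881, 79253 and 77762 normalized counts. Bone genes reached 10 in all libraries for 8 of 8 members and summed to 4935, 4978 and 5712 per kb, and cartilage genes for 5 of 6. Ensheathing glia, which wrap the olfactory axons, had 7 of 7 genes and a sum of 3103, 3327 and 3995 per kb, led by Fabp7, a fatty acid-binding protein.

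Smooth muscle genes had 4 of 4 members and sums of 5394, 5352 and 6673 per kb. Blood, immune and skeletal muscle genes had lower sums than these. Erythroid genes summed to 3585, 2733 and 3145 per kb, carried by hemoglobin genes whose close copies may share reads. Of 7 neutrophil genes 3 were kept, with sums of 800, 1142 and 2010 per kb over all 7, lowest in control 1 and highest in control 3. B and plasma cell genes summed to 374, 368 and 590 per kb, highest in control 3. No T or NK cell, mast cell or adipocyte gene of the lists was kept, and their sums did not exceed 28.9 per kb in any library. Skeletal muscle genes summed to between 92.1 and 97.4 per kb. Central neuron and astrocyte genes had 6 of 7 members and sums of 540, 709 and 612 per kb. Of their sum Slc1a2 gave 66.7%, and the tissue these reads came from was not tested. Scgb1a1, the club cell secretoglobin of the lower airways, was at 0 in controls 1 and 2 and at 1.16 normalized counts in control 3.

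**Figure D2:**
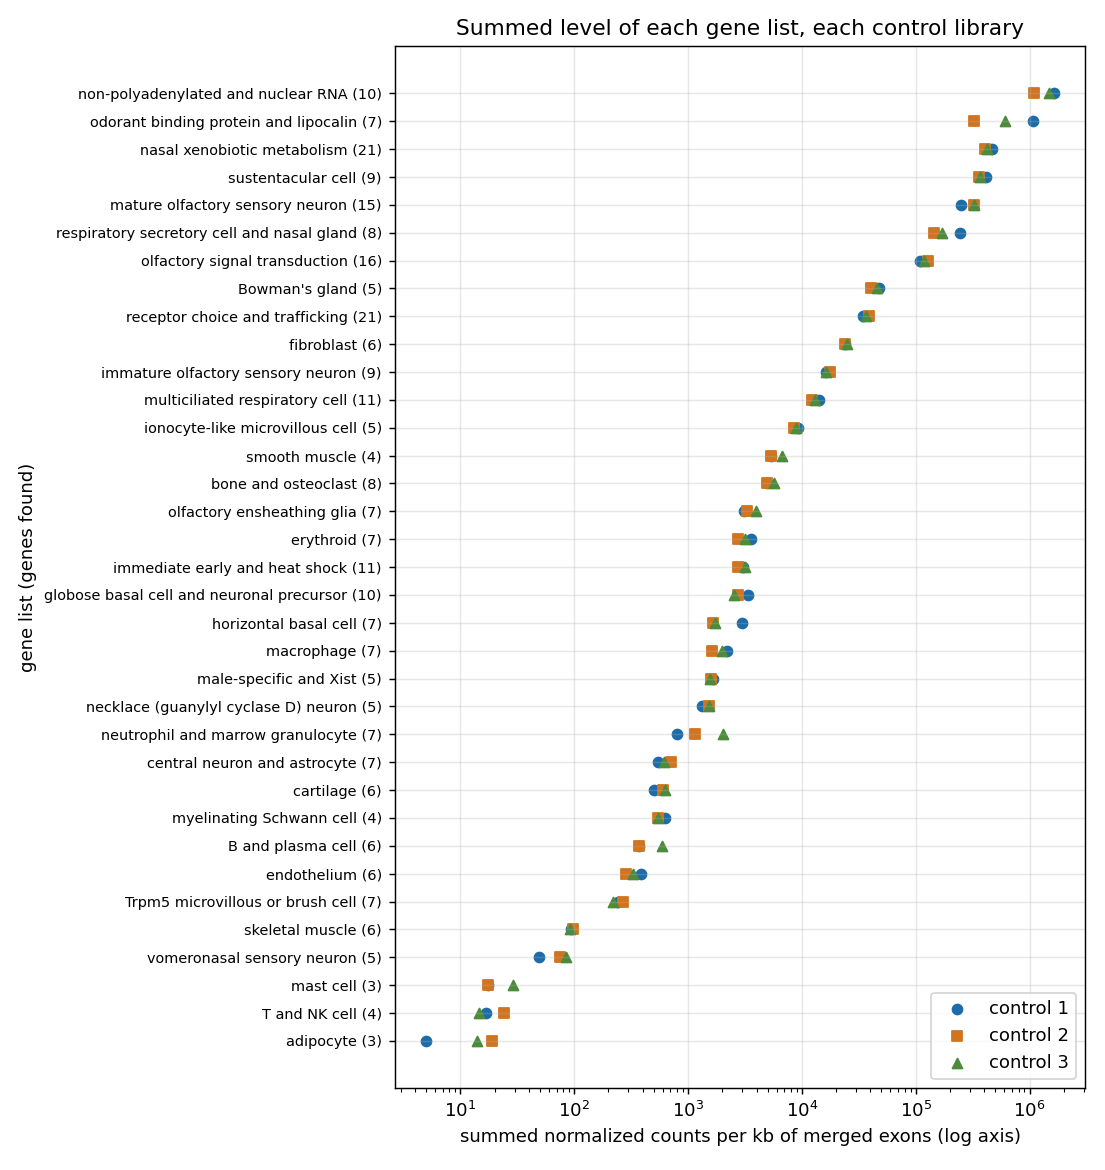
Summed normalized counts per kb of merged exons (log axis) of the 35 gene lists, with the number of genes found in parentheses and 1 point for each control library. The lipocalin list spreads from 323457 in control 2 to over 1000000 in control 1, while the fibroblast, immature neuron and sustentacular lists have nearly coincident points.

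The transduction pathway was complete. All 16 genes of the olfactory signal transduction list were kept, with sums of 108251, 127635 and 119020 per kb. Gnal, the stimulatory G protein subunit of these neurons, had 65563, 83239 and 71505 normalized counts, and Adcy3, the adenylyl cyclase that makes cyclic AMP, had 41970, 47780 and 40654. The channel subunits Cnga2 (36200, 45622 and 41670), Cnga4 (12351, 15610 and 13887) and Cngb1 (12565, 14508 and 11173) and the chloride channel Ano2 (15837, 19184 and 17833) followed. Control 2 was the highest library for each of these genes. Gnal and Adcy3 overlap Mppe1 and Cenpo on the opposite strand, genes with means of 565 and 346 normalized counts, and their reads there are uncertain.

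Genes of receptor choice and trafficking were present at moderate and even levels, 21 of 21. Per kb the highest was Atf5, the transcription factor of the receptor feedback signal, with 10404 ± 555, followed by the receptor chaperones Rtp1 (7154 ± 824) and Rtp2 (5850 ± 765) and by Ebf2 (2429 ± 231), of the Ebf factors that bind receptor promoters. Lhx2, the homeodomain factor that works with Ldb1 at receptor enhancers, had 5847, 6099 and 5789 normalized counts, and Ldb1 had 4453, 4193 and 3883. Bcl11b, a zinc finger factor linked to the choice between class I and class II receptors, had 2794, 3110 and 2556. Kdm1a, a histone demethylase needed for receptor choice, had 4238, 4234 and 4255, among the 10 narrowest of all genes at a mean of 1000 or more.

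Odorant receptors were mostly detected and individually low. Of 1318 odorant receptor genes in the table, 939 (71.2%) were kept, against 8 that were at 0 in all 3 libraries. Over all protein-coding genes 76.5% were kept, so the receptor share was near the ordinary one. Of the 240 that are pseudogenes 50 were kept (20.8%), and of the others 889 of 1078 (82.5%). Together the 939 took 0.349 ± 0.048% of the counts (SD, n = 3). Their median was 83.0 normalized counts and the highest stood 48.8-fold above it. Only 9 had a mean of 1000 or more and 383 a mean of 100 or more, and the 90th percentile was 9.71-fold above the 10th.

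Olfr536 (chromosome 7, 140500849 to 140507396) was the highest receptor by count, with 4556, 4126 and 3469 normalized counts. Olfr1507 (chromosome 14, 52488791 to 52495749) had 3560, 3207 and 3833, Olfr727 had 2488, 2093 and 2202, and Olfr533, near Olfr536, had 2073, 2099 and 1692. The ranges of Olfr536 and Olfr1507 overlapped, so their order is not separated by the spread of the libraries, and the same holds for Olfr727 and Olfr533. Per kb of merged exons Olfr1507 came first, with 1228 ± 109 against 945 ± 128 for Olfr536. Olfr309, Olfr166, Olfr1372-ps1, Olfr741 and Olfr726 had means from 1510 down to 1056, and Olfr195, Olfr124, Olfr1228, Olfr1508, Olfr1257 and Olfr1348 from 927 down to 793. These 15 highest by count lie on chromosomes 2, 7, 11, 14, 16 and 17. Chromosome 2 held 249 kept receptor genes and 24.1%, 23.4% and 24.5% of the receptor counts of the 3 libraries, chromosome 7 held 194 and 21.9 ± 0.86%, and chromosome 14 held 11.5 ± 1.16% with 39 genes.

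The 10 highest receptors of each library held 17.4%, 13.8% and 13.8% of its receptor counts. To reach 50% of the receptor counts took the highest 118 genes in control 1, 153 in control 2 and 151 in control 3, so the counts of control 1 were the most concentrated. The summed counts of the 10 highest by mean were 19148, 18898 and 18266, nearly level. For ranks 11 to 100 they were 31234, 36936 and 35530, for ranks 101 to 500 45326, 61391 and 58607, and for ranks 501 to 939 14861, 21076 and 20247. Control 1 over control 2 was thus 1.01 in the first set and 0.846, 0.738 and 0.705 in the others.

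Control 1 was the lowest library for 657 of the 939 receptors (70.0%), against 30.9% of all 18804 genes. Scaled to the library total instead, the figures were 74.9% of receptors and 41.5% of all genes. Between the 10th and the 90th percentile of receptor means, control 1 was lowest in 33.7% of 4589 other genes and in 72.2% of 751 receptors. The summed counts of class II receptors were 0.694, 0.692 and 0.718 times those of Omp in controls 1, 2 and 3, a sum in which the few highest receptors weigh most. The median class II log2 difference of control 1 was -0.36 from control 2 and -0.29 from control 3, below the -0.28 and -0.16 of Omp. The low breadth of control 1 moves with these values, and its part in them was not tested.

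Class I receptors, defined here by position in their single cluster on chromosome 7, were further below the other libraries in control 1 than class II. Of 150 class I genes 106 were kept (70.7%), and of 1168 class II genes 833 (71.3%). Class I genes held 5.98% of the receptor counts in control 1, 9.05% in control 2 and 9.26% in control 3. Their sum over Omp was 0.0441, 0.0688 and 0.0733. Control 1 was the lowest library for 99 of 106 class I genes (93.4%) and for 67.0% of class II genes. The median log2 difference of control 1 from control 2 was -0.92 for class I and -0.36 for class II, against 0.03 over all 18804 genes.

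The highest class I gene, Olfr672 (chromosome 7, 104995760 to 105002029), had 336, 638 and 758 normalized counts. Olfr665 had 197, 383 and 427, and Olfr549 had 172, 319 and 309. Control 1 was lowest in all 3. Olfr640 had 199, 313 and 378 and Olfr615 had 128, 323 and 316, though the exons of Olfr640 overlap those of Olfr643 and the exons of Olfr615 those of Olfr616, so their reads are uncertain. Genes tied to the dorsal zone of the epithelium, where class I receptors are known to be expressed, were looked up after these values were seen. Nqo1, an oxidoreductase of dorsal-zone neurons, had 9080, 10946 and 14993 normalized counts, and Acsm4, an acyl-CoA synthetase family member of the dorsal zone, had 25531, 26527 and 29738. Ncam2, an adhesion molecule of ventral-zone neurons, had 3681, 4191 and 3703. Nqo1 and Acsm4 were lowest in control 1 and highest in control 3. Ncam2 was highest in control 2, and its values in controls 1 and 3 differed by less than its counting error of 1.62%. The part of the zones in the class I values was not tested.

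**Figure D3:**
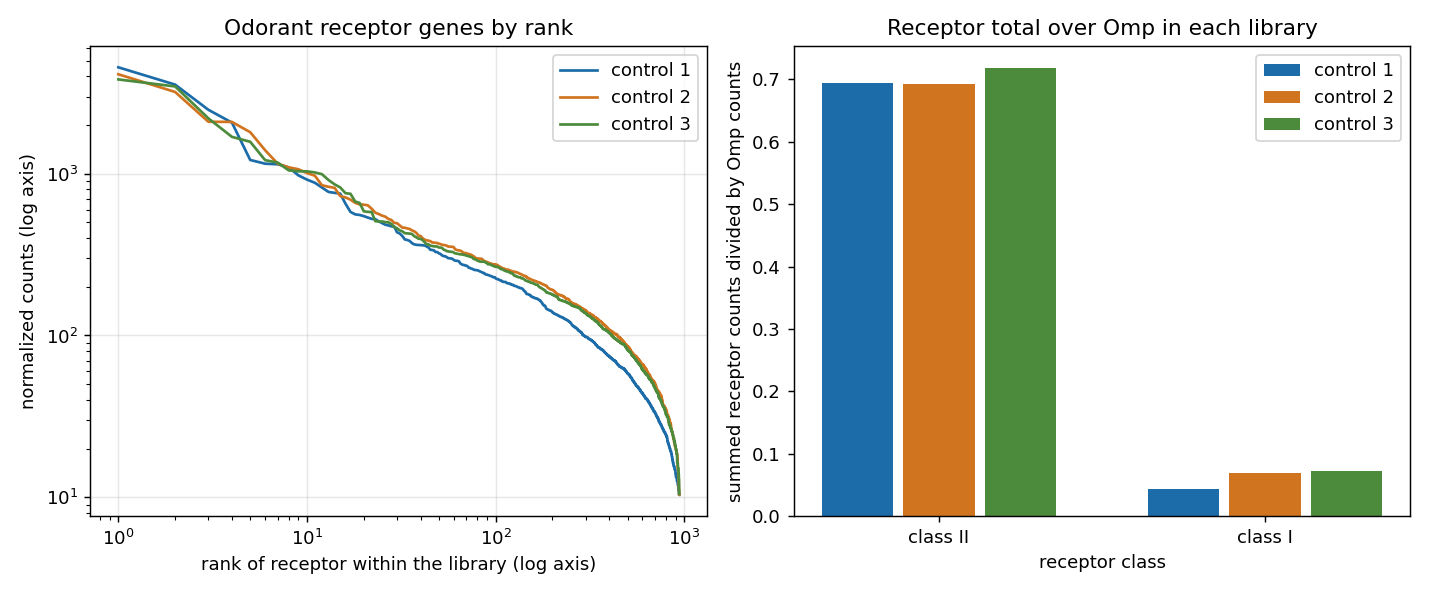
Left, normalized counts of the 939 odorant receptor genes by rank within each library (both axes log); right, summed counts of class II and class I receptors divided by the counts of Omp, 1 bar for each control library. The curves meet at the highest ranks and control 1 falls below the others further down, and its class I bar (0.0441) is lower than the 0.0688 and 0.0733 of controls 2 and 3.

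Around the rule's threshold the receptors did not form a gap. Just inside were Olfr1316, Olfr39, Olfr1478-ps1, Olfr1451 and Olfr803, each just above 10 normalized counts in its lowest library. Just outside were Olfr980, Olfr697, Olfr1472, Olfr1160 and Olfr114, each with 9.61 in control 1, and of these Olfr1160 had 70.0 and 79.1 in controls 2 and 3. Among receptors with a mean of 100 or more the narrowest were Olfr181 (248, 245 and 247), Olfr1260, Olfr121, Olfr297 and Olfr110. The widest were Olfr250 (61.4, 235 and 322), Olfr988, Olfr1009, Olfr424 and Olfr690, in each of which control 1 was the lowest.

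Trace amine-associated receptors, a small separate family of olfactory receptors for amines, were detected at receptor-like levels. Of 16 genes 10 were kept, with sums over all 16 of 734, 1302 and 1281 normalized counts. Taar7d led with 163, 183 and 249, followed by Taar2 with 132, 180 and 176, Taar7a with 99.8, 130 and 127, and Taar6 with 85.8, 126 and 131. Each of these 4 was lowest in control 1. Taar7b, Taar9, Taar4, Taar7e, Taar7f and Taar5 were lower, with Taar9 at 23.7, 153 and 128. Taar8b, Taar3, Taar8a, Taar8c and Taar7c-ps did not reach 10 in every library. Taar1, which is known as a brain receptor and not an olfactory one, was at 0 in controls 1 and 2 and at 3.49 in control 3. The Taar7 and Taar8 genes are close relatives and may share reads.

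Vomeronasal receptors, which serve the separate vomeronasal organ, were nearly absent. Of 145 Vmn1r genes 1 was kept, Vmn1r4 (37.0, 63.1 and 59.3 normalized counts), and of 117 Vmn2r genes 3, Vmn2r1, Vmn2r74 and Vmn2r79, with means from 15.9 down to 11.9. Vmn2r29 had 5.91, 18.4 and 15.1, and none of 4 Fpr-rs genes was kept.

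Spread among the 3 animals was small for most genes. The median coefficient of variation over all 18804 genes was 9.61%, against 4.20% expected from counting reads alone. At means of 10 to 100 normalized counts the medians were 19.7% and 17.0%, and 60.0% of these genes lay above their counting value. The counting value is an expected spread. Under counting alone the median of values estimated from 3 libraries would lie below it, so these pairs understate the spread beyond counting. From 1000 to 10000 the medians were 6.38% and 2.13%, and above 10000 they were 7.78% and 0.814%. For high genes the libraries thus differed by far more than counting error. The highest library exceeded the lowest by over 2-fold in 916 genes, or 4.87% of the 18804, and 79.0% of the 916 had a mean below 100. Of the 916, 61.1% were lowest in control 1. That share was 30.9% over all 18804 genes and 44.6% over genes with means of 10 to 100. With 1 library left out, the number over 2-fold apart was 237 without control 1, 566 without control 2 and 552 without control 3. A fall is built in, since the highest and lowest are then taken over fewer libraries, and the genes kept differ. Among odorant receptors 23.1% were over 2-fold apart, 49.1% of class I and 19.8% of class II. Between the 10th and the 90th percentile of receptor means the share was 24.9% of 751 receptors and 7.37% of 4589 other genes. In this band the median coefficient of variation was 23.3% for receptors, against 11.1% from counting. For the other genes it was 14.8% against 11.4%.

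Of 7270 genes with a mean of 1000 or more, 42 were over 2-fold apart. In 34 of them control 1 was the highest library and in 8 control 3, and in 31 control 2 was the lowest. These numbers stand against the 42.6% of all genes that were highest in control 1 and the 28.9% that were highest in control 3. Control 2 was the lowest library in 32.9% of all genes.

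Several of the widest genes code for secreted proteins. Dmbt1, a mucosal scavenger glycoprotein, had 46290, 4599 and 9329 normalized counts. Lcn3 and Lcn4, secreted lipocalins of nasal glands, had 36724, 4184 and 12016 and 20401, 2246 and 6634. In each control 1 was far above the others and control 2 was lowest. Chil4, a chitinase-like protein, had 3603, 147 and 96.5, and Pglyrp1, a secreted receptor for bacterial peptidoglycan, had 2144, 428 and 730. Scgb1b27, Scgb2b27, 2310057J18Rik and BC048546 were also highest in control 1 and lowest in control 2, between 3.84-fold and 3.99-fold apart.

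Another order was seen in Bpifb9b, with 6757, 36544 and 79599 normalized counts, and in its neighbour Bpifb9a, with 2028, 10227 and 20998. Both belong to the BPI fold family and were highest in control 3 and lowest in control 1. The widest of all were the predicted genes Gm10800, with 164, 66185 and 136159, and Gm26870, with 34.7, 5286 and 8462. Gm26870 overlaps other predicted genes on the opposite strand, so its reads are uncertain.

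**Figure D4:**
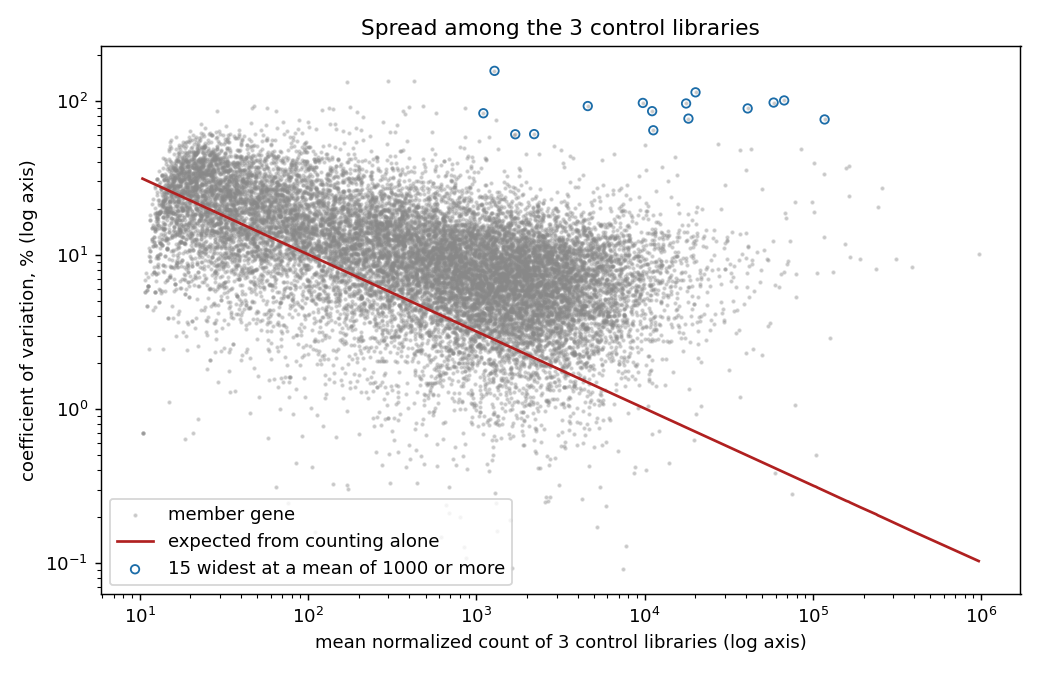
Coefficient of variation (percent, log axis) of each of the 18804 genes against its mean normalized count in the 3 control libraries (log axis), with the value expected from counting reads alone as a line and the 15 widest genes at a mean of 1000 or more as open circles. Low genes scatter around the line, and above a mean of 1000 most genes lie above it.

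Other genes hardly differed between the animals. Nucks1, a nuclear protein that binds DNA, had 7489, 7476 and 7478 normalized counts, and Npat, an activator of histone genes, had 1629, 1630 and 1632. Twsg1, Slc35e2, Oaz2, Dhx29, Zfp280d, Dpyd, Ubtf and Kdm1a were within 1.0049-fold. A gap this small is below the counting error of these genes (1.17% for Nucks1 and 2.50% for Npat).

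The order of the libraries differed from list to list. All 7 lipocalin genes of the list were highest in control 1, lowest in control 2 and over 2-fold apart, with sums of 1075060, 323457 and 607220 normalized counts per kb. The 7 kept genes of respiratory secretory cells and nasal glands had the same order, with sums of 245120, 144773 and 171189 per kb. In this list Bpifa1 gave 89.6% of the sum, and without it the sums were 26589, 13429 and 18409. Ltf, the secreted iron-binding protein lactoferrin, had 42683, 14433 and 24920 normalized counts, and Muc5ac, a mucin, had 758, 45.9 and 89.5. Horizontal basal cell genes were highest in control 1 for 7 of 7, with Krt5, a keratin of basal cells, at 2557, 1490 and 1393 and Krt15 at 993, 197 and 247.

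Mature neuron genes had the reverse order. Control 2 was the highest library for 14 of 15 and control 1 the lowest for 12, or 13 when scaled to the library total. The median log2 difference of control 1 from control 2 was -0.28 for this list, against 0.03 over all genes. It was 2.18 for the lipocalin list, 0.73 for the respiratory secretory list and 0.59 for horizontal basal cells. Sustentacular genes were highest in control 1 for 7 of 9 by the authors' normalization and for 5 of 9 scaled to the library total, with a median difference of 0.20. Bowman's gland genes were highest in control 1 for 5 of 5, as the lipocalins were, or for 4 of 5 scaled to the library total. Unlike the lipocalins they were lowest in control 3 for 4 of 5. Their median differences of control 1 were 0.26 from control 2 and 0.36 from control 3. They summed to 47992, 40133 and 45303 per kb, and Gpx6, which was lowest in control 2, gave 87.7% of the sum. The 3 kept neutrophil genes and the 5 kept B and plasma cell genes had median differences of control 1 from control 3 of -1.27 and -0.73. Ensheathing glia genes were highest in control 3 for 6 of 7 and smooth muscle genes for 4 of 4 under both scalings. Macrophage genes were lowest in control 2 for 7 of 7. How much of the non-neuronal tissue each dissection held is not recorded in the labels, and its part in these orders was not tested.

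**Figure D5:**
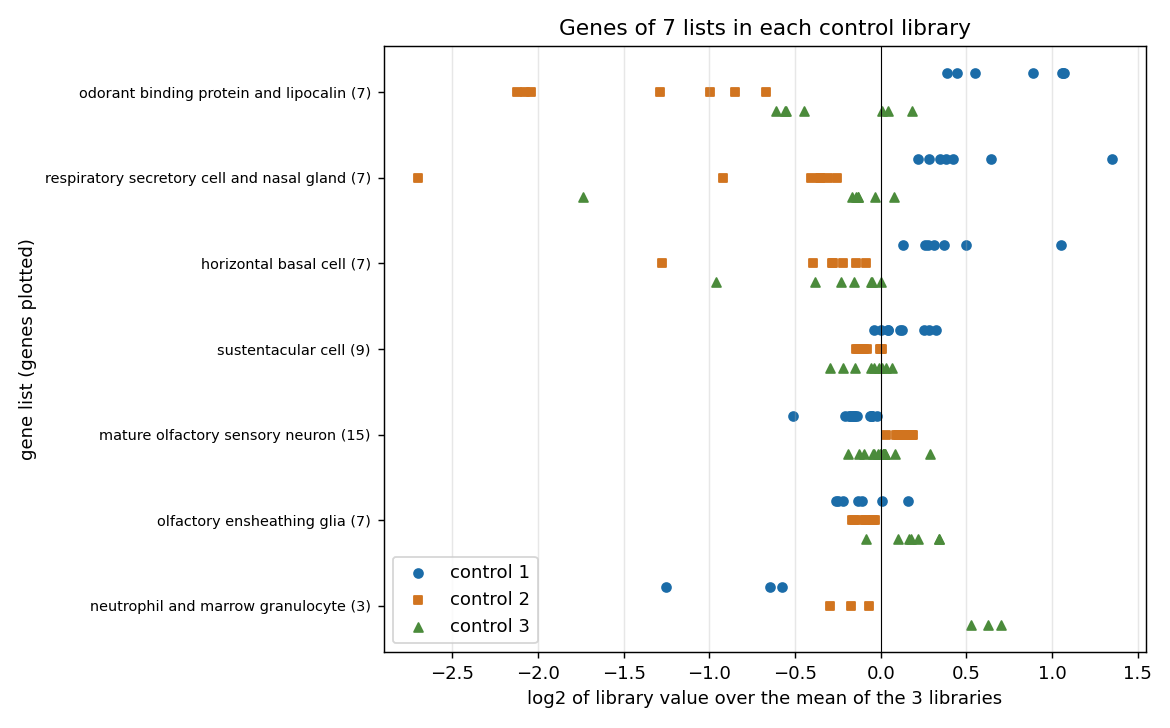
Log2 of each control library's normalized count over the mean of the 3 libraries, 1 point per gene and library, for the kept genes of 7 lists. Lipocalin and respiratory secretory genes lie right of 0 in control 1 and left of it in control 2, mature neuron genes lie mostly left of 0 in control 1, and the 3 neutrophil genes lie right of 0 in control 3.

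Immediate early genes, which respond within minutes to activity or handling, did not move together. Fos had 160, 426 and 581 normalized counts and Egr1 had 123, 181 and 255, both lowest in control 1. Junb had 861, 525 and 669 and Arc had 324, 194 and 197, both highest in control 1. The exons of Junb overlap those of Prdx2 on the opposite strand, a gene with a mean of 8738, so the reads of Junb are uncertain. Jun had 3737, 2989 and 3250.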

How the data were processed

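Olfactory mucosa RNA was isolated with a Qiagen RNeasy kit and made into ribosomal RNA-depleted stranded libraries with an Illumina TruSeq kit, per the labels' protocols. STAR 2.6.0, DESeq2 and the build GRCm38.p6 are named per the submitters' processing notes. How reads were assigned to genes (program, annotation, strand) is not given in the sources used here. Values of overlapping genes and near-identical copies are uncertain for that reason. The deposited table has 40273 genes with a normalized value per library, a signal that is never negative, which is a gene count divided by a size factor. Columns of no sample numbered 0. Further deposited columns, which were not used here, give a log2 fold change and its error, a test score and a p-value from the authors' own comparison. The 3 deletion libraries were not used.

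In each control library 100% of the values came out as whole reads once divided by the smallest step of that library (tolerance 0.001 reads). They bound the counting error, given as the coefficient of variation that reads alone would produce. Genes were matched to GENCODE vM21 by identifier without version (40012 of 40273), and levels per kb use merged exon length. Class I receptors were odorant receptor genes (symbol Olfr) in the stretch of chromosome 7 that begins 1 Mb before and ends 3 Mb after the deleted element, and all others were class II. Pseudogenes were taken from the annotation or the symbol. Means are given with SD over 3 libraries, and the design text calls the samples animals. No test was run, since the rule takes 1 group. The spread measures were checked on simulated counts with 200 genes changed.

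Members and gene lists were chosen with earlier results of these data known. Genes were named by a rule: Omp, Bpifa1, Obp1a and Cyp2g1; the 30 highest coding genes per kb, 10 noncoding and 5 mitochondrial genes; the 15 highest receptors, the 5 highest of class I, those near the threshold, the Taar genes and the highest vomeronasal receptors; the 4 highest of each list; the 15 widest and 10 narrowest genes at a mean of 1000 or more, with 5 of each among receptors at 100 or more; and sex-linked and immediate early genes. Some genes that the rule takes are not reported here. Other list genes that are named, and Nqo1, Acsm4 and Ncam2, were chosen after their values were seen. Alternatives were other filters, per-million scaling, the longest transcript as length, a total without mitochondrial genes, another pseudocount, thinned reads and each library left out. Python 3.11.15, numpy 2.4.6, pandas 2.3.3 and matplotlib 3.10.9 were used.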

Additional observations from a re-analysis of the deposited data

How the results depend on the processing

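No paired analysis was possible because the values come from 1 group and no test was run. Of 107 values over 19 results recomputed under another setting, 89 moved by less than a set margin and 18 moved by more. The margin was the spread between libraries, or 1.5 times for counts. For the median coefficient of variation and the median SD of log2 values it was the SD over pairs of libraries. For the share highest in control 1 it was 0.71 percentage points, from a binomial interval that treats genes as independent. The number of genes over 2-fold apart was 916 as reported, 459 with a minimum of 20 in place of 10, 6562 for all genes above 0 in all 3 libraries, and 237 to 566 with 1 library left out, lowest without control 1. Control 1 was the highest library in 42.6% of genes as reported, in 44.6% with a minimum of 20, in 34.2% without the filter and in 31.4% when scaled to the library total. Without the filter the median coefficient of variation rose from 9.61% to 14.1%, the median SD of log2 values from 0.14 to 0.19, and the share of the counts held to 99.9%. With 1 library left out these medians lay between 6.93% and 8.74% and between 0.0992 and 0.13. Leaving mitochondrial genes out of the total put the protein-coding share at 96.1%. With the longest transcript as length, Scgb1c1 went from 15707 to 13208 on a per-length scale that sums to 1000000, and the respiratory secretory sum from 187028 to 255699 per kb.

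With 3 libraries an SD rests on few values, and differences between libraries carry no test. Below a mean of 100 normalized counts, the coefficient of variation expected from counting error had a median of 17.0%, which limits what a single low receptor can show. Intervals from reads cover counting error only.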
